A study of Mus musculus with 2 samples.

Results

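The genes described here belong to the netrin and slit guidance system of the embryonic mouse brain. They comprise the secreted ligands *Ntn1*, *Slit1* and *Slit2*, the netrin receptors *Dcc*, *Unc5a*, *Unc5b*, *Unc5c* and *Unc5d*, and the slit receptors *Robo1* and *Robo2*. They were chosen by gene symbol and are 10 of the 24411 genes in the count tables. The list was drawn up with the difference between the tissue areas in these libraries already known, so that the ratios given for its members are a description and were not tested.

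Wild-type or mutant status, strain and the number of embryos are not given in the labels, and the tissue was fresh-frozen brain at embryonic day 16.5 from timed matings. Laser capture microdissection (LCM) is the cutting of chosen areas from a stained section under a microscope. It was applied to the SVZ, or subventricular zone, a layer near the ventricle where progenitors divide. It was also applied to the cortex, which the series' design text calls the cortical plate. Each area gave 1 bulk RNA-seq library, prepared in the study as the physical-dissection reference for a light-directed barcoding method. The SVZ library held 51435667 gene-assigned reads and the cortex library 22050693, and with 1 library per area no difference has a replicate check.

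Netrin-1 is a secreted cue that attracts growing axons through DCC and repels them where receptors of the UNC5 family take part. UNC5 receptors carry a death domain inside the cell and also bind FLRT proteins, cell-surface ligands that repel migrating UNC5D-positive neurons. Slits are large secreted proteins that bind the ROBO receptors and repel axons and migrating cells, and transcripts from the *Unc5d* locus have long served as a label of the embryonic SVZ.

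The start regions of 4 members are printed because these members differ in the direction of their ratios: *Unc5a* and *Slit2* were higher in the SVZ library, *Robo1* was higher in the cortex library, and *Robo2* lay near equality. Each is the 250 bases before an annotated RefSeq start on GRCm38.p6, written 5′ to 3′ on the strand of the gene. Capitals mark the E-box CANNTG, the core sequence read by basic helix-loop-helix factors, and the GC box, read as GGGCGG or as its reverse complement CCGCCC. The E-box is its own reverse complement, so both strands were searched for both motifs. Neighbouring GC boxes may share a base.
*Unc5a*, chr13:54949161-54949410, plus strand: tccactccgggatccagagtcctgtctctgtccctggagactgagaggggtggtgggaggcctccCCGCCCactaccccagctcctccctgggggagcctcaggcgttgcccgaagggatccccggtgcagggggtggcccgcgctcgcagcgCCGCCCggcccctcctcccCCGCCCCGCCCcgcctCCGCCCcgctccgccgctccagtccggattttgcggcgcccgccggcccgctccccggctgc
*Slit2*, chr5:47982905-47983154, plus strand: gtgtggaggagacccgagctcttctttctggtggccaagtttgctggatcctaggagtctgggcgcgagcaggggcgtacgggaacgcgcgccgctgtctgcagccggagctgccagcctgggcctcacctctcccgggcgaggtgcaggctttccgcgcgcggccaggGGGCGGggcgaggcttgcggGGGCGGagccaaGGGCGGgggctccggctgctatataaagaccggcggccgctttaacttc
*Robo1*, chr16:72662899-72663148, plus strand: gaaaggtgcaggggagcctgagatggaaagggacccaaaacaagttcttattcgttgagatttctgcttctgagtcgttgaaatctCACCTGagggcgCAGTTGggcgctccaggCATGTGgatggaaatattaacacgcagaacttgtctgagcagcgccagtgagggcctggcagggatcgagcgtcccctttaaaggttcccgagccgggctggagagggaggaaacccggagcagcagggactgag
*Robo2*, chr16:74411826-74412075, minus strand: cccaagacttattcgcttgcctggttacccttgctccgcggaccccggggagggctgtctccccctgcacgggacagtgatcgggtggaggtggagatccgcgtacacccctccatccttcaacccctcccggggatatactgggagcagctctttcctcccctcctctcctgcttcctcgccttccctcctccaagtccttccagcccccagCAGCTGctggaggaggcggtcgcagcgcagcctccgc

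The *Unc5a* window held 5 GC boxes and 0 E-boxes and was 76.8% G and C. The *Slit2* window held 3 GC boxes and 0 E-boxes, with 69.6% G and C, and its last 17 bases lie in an exon of the GENCODE M21 annotation. *Unc5b*, which was 1.90-fold higher in the cortex, also had GC boxes only, with 2 GC boxes and 0 E-boxes. Whether the motifs go with the direction of the ratios was not tested.

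The *Robo1* window held 3 E-boxes and 0 GC boxes, with 56.0% G and C, and it lies inside the annotated gene but outside its exons. *Robo2* has 3 RefSeq starts, each with 1 E-box and 0 GC boxes, of which the one printed directly precedes the GENCODE gene. Among 32817 windows of the same length from all genes, 66.2% held an E-box and 32.7% a GC box, and the median content of G and C was 52.4%. The E-box form CAGATG, or its reverse complement CATCTG, was in 14.5% of all windows and in 0 of those found for members. *Dcc*, on chromosome 18, was left out of the search for starts. Entries were found for 6 of the 10 members. Among them, cortex-higher *Unc5c* had 0 of either motif, in a window of which all 250 bases lie in annotated exons. A match is a description of letters and not a binding site.

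Counts were divided by the gene-assigned reads of their library to give CPM (reads per 1000000 gene-assigned reads), and the ratio of SVZ to cortex CPM is given with an exact (Clopper-Pearson) 95% interval. These intervals cover counting error only, since copies made by PCR cannot be told from separate molecules without molecular identifiers. A count of 0 allowed a level of up to 3 reads, worth 0.0583 CPM in SVZ and 0.136 CPM in cortex. In tissue pieces holding many cells, fewer cells of a type and less RNA per cell cannot be told apart.

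The 10 members went in both directions. Of the 9 whose mean level reached 1 CPM, 3 were at least 2-fold higher in the SVZ (*Unc5a*, *Unc5d* and *Slit2*), against 20.0% of the 12738 genes past the same minimum. Another 3 were at least 2-fold higher in the cortex (*Unc5c*, *Robo1* and *Slit1*), against 15.6% of all genes. The remaining 3 (*Unc5b*, *Dcc* and *Robo2*) lay within 2-fold, and *Ntn1*, at a mean of 0.959 CPM, was under the minimum. At 4-fold, 2 members were higher in the SVZ and 3 in the cortex, against 10.2% and 7.01% of all genes. The median log2 ratio over the 9 was -0.83, and over all genes it was 0.11 with quartiles of -0.56 and 0.76. Since the members were picked with this contrast in view, nothing is read from these shares.

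**Figure D1:**
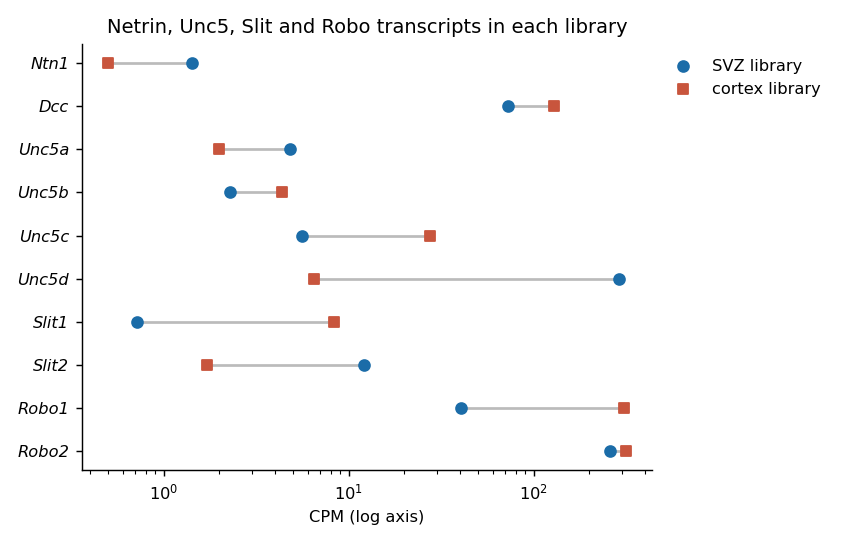
Level of each member in the SVZ and cortex libraries, in CPM on a log axis, with 1 point per library. A grey line joins the points of each gene and is not an interval. *Unc5d* shows the widest gap, 288 against 6.49 CPM, whereas the points of *Robo2* lie at 258 and 315 CPM.

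Among the secreted ligands, *Slit2* and *Slit1* pointed in opposite directions. *Slit2* (chr5:47983138-48307733, plus strand), whose product is cleaved into fragments that repel axons, was counted 624 times in SVZ and 38 times in cortex, or 12.1 and 1.72 CPM. It was 7.04-fold higher in the SVZ (interval 5.07 to 10.0), a log2 ratio of 2.82. The SVZ library was the high one, and the cortex count still lay above the floor of 3 reads.

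*Slit1* (chr19:41600257-41743665, minus strand), the paralog expressed mainly in the nervous system, had 37 SVZ reads and 183 cortex reads, or 0.719 and 8.30 CPM. It was 11.5-fold higher in the cortex, with a log2 ratio of -3.53 (interval -4.08 to -3.01), the lowest among the members. With a pseudocount of 1 CPM it went to -2.44, and *Robo1* was then lowest at -2.89. *Slit3*, the remaining paralog, had 0 and 3 reads and was given no ratio.

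Exon lengths here and below were taken from GENCODE M21 by gene symbol and may differ from the exons used for counting. As shares of the slit family, corrected for exon length, *Slit2* made up 79.7% of the SVZ signal and *Slit1* made up 94.0% of the cortex signal. The leading slit therefore differed between the areas. Per kilobase of annotated exon, *Slit2* was 3.93 times the level of *Slit1* in the SVZ and *Slit1* was 20.7 times the level of *Slit2* in the cortex. The size of the latter depends on the length taken for *Slit2*, whose annotated exons cover 25433 bases and whose longest transcript has 9960. With longest transcripts *Slit1* was 8.46 times *Slit2* in the cortex. Summed over the family the direction itself depended on length, with a log2 ratio of 0.34 by reads, -1.32 per kilobase of exon and -0.31 per kilobase of longest transcript.

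*Ntn1* (chr11:68209364-68400823, minus strand), the gene of netrin-1, was scarce in both areas. The SVZ library gave 73 reads of it and the cortex library 11, or 1.42 and 0.499 CPM. The SVZ level was 2.85-fold higher with a wide counting interval of 1.50 to 5.95, a log2 ratio of 1.51. On the first stranded count column, with 36 and 2 reads, it was 2.95, on the second, with 37 and 9 reads, 0.81, and with a pseudocount of 1 CPM 0.69, so that the latter settings put it within 2-fold.

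*Ntn3*, another secreted netrin, held most of the family in both libraries, with 86.4% of the SVZ and 97.1% of the cortex level per kilobase over *Ntn1*, *Ntn3*, *Ntn4* and *Ntn5*. It stood at 7.87 and 15.8 CPM, 2.00-fold higher in the cortex. *Ntn4* had 3 and 1 reads and *Ntn5* 0 in both.

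*Unc5d* (chr8:28646717-29219636, minus strand), the receptor that FLRT proteins bind with repulsive effect on migrating neurons, was the member with the highest ratio. The SVZ library gave 14832 reads of it and the cortex library 143, or 288 and 6.49 CPM. The SVZ level was 44.5-fold higher (interval 37.7 to 52.8), a log2 ratio of 5.47 that exceeded those of 98.2% of the 12738 genes. By level per kilobase, it ranked 1 of 10 in the SVZ and 6 of 10 in the cortex.

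*Unc5c* (chr3:141465216-141834924, plus strand), a netrin receptor known for the repulsion of axons from the midline, pointed the other way. It had 289 SVZ reads and 603 cortex reads, or 5.62 and 27.3 CPM, and was 4.87-fold higher in the cortex, with a log2 ratio of -2.28 (interval -2.49 to -2.08). Among the *Unc5* paralogs it was the only one at least 2-fold higher in the cortex under gene-total scaling.

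*Unc5a* (chr13:54949411-55006018, plus strand), a receptor found mainly in neurons, had 249 SVZ reads and 44 cortex reads, or 4.84 and 2.00 CPM. The SVZ level was 2.43-fold higher (interval 1.76 to 3.42), a log2 ratio of 1.28 that went to 0.96, under 2-fold, with a pseudocount of 1 CPM. *Unc5a* was the only member whose stranded counts summed to more than the unstranded count, at 261 and 47 reads, so that a few of its reads overlap another gene.

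*Unc5b* (chr10:60762593-60831581, minus strand), a receptor best known from blood vessels, had 118 and 96 reads, or 2.29 and 4.35 CPM. It was 1.90-fold higher in the cortex, with a log2 ratio of -0.92 (interval -1.33 to -0.52), and was the member nearest to the 2-fold threshold. Among pathway genes just inside and outside it, *Ntn3* was 2.00-fold and *Usp33*, a deubiquitinase that binds ROBO1, 1.95-fold higher in the cortex. With trimmed-mean-of-M-values (TMM) scaling *Unc5b* stood at -1.02 and passed it, as it did on the second stranded column at -1.11, whereas the first gave -0.68. The list of blood vessel markers, which does not include *Unc5b*, had summed levels of 158 CPM in the SVZ and 120 CPM in the cortex. Of its 10 genes, 1 was at least 2-fold higher in the cortex and 0 in the SVZ, against 15.6% and 20.0% of all genes. The part of vessel cells in the *Unc5b* ratio was not tested.

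Within the *Unc5* family, *Unc5d* made up 94.5% of the level per kilobase in the SVZ and 21.3% in the cortex. In the cortex *Unc5c* held 43.2%, *Unc5b* 21.0% and *Unc5a* 14.5%, so that the signal there was spread over all paralogs. *Unc5d* was at 107 times the level of *Unc5c* per kilobase in the SVZ library, while *Unc5c* was at 2.03 times the level of *Unc5d* in the cortex library. With longest transcripts these ratios were 53.7 and 4.03. The summed family was higher in the SVZ, at 301 against 40.2 CPM. Without *Unc5d* the sum was lower in the SVZ, at 12.8 against 33.7 CPM, a log2 ratio of -1.40 (interval -1.56 to -1.25), and the sum per kilobase gave -0.52.

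**Figure D2:**
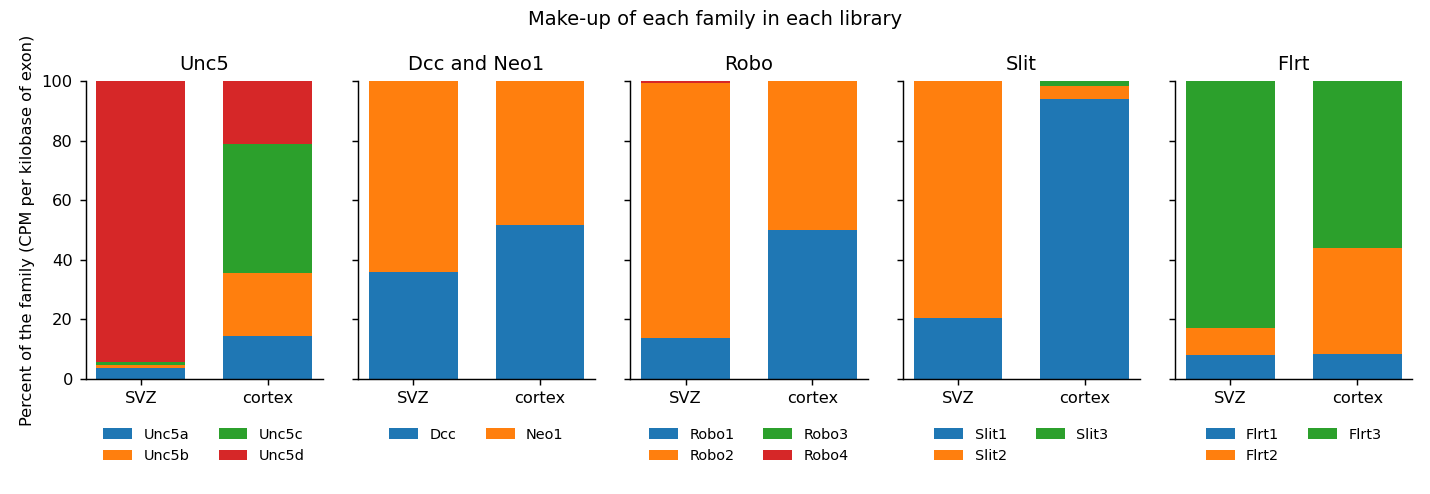
Share of each paralog in its family, in percent of the level per kilobase of annotated exon, as stacked bars for the SVZ and cortex libraries. *Unc5d* fills 94.5% of the *Unc5* bar in the SVZ and 21.3% in the cortex, and the slit bars change from 79.7% *Slit2* to 94.0% *Slit1*.

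*Dcc*, on chromosome 18 and coding for the receptor of netrin attraction, was abundant in both areas. It had 3737 SVZ reads and 2847 cortex reads, or 72.7 and 129 CPM, and was 1.78-fold higher in the cortex, with a log2 ratio of -0.83 (interval -0.90 to -0.76). Its paralog *Neo1* (neogenin), a receptor for netrins and repulsive guidance molecules, was near level at 86.4 and 79.8 CPM. Of the pair, *Dcc* made up 35.7% per kilobase in the SVZ and 51.7% in the cortex. *Dcc* exceeded *Ntn1* per kilobase 24.4 times in the SVZ and 123 times in the cortex.

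*Robo1* (chr16:72308306-73046095, plus strand), a slit receptor of migrating neurons and axons, had 2090 SVZ reads and 6762 cortex reads, or 40.6 and 307 CPM. It was 7.55-fold higher in the cortex, with a log2 ratio of -2.92 (interval -2.99 to -2.84). Only 3.84% of the 12738 genes had a lower ratio.

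*Robo2* (chr16:73891839-74411825, minus strand), its neighbour on chromosome 16 in the opposite orientation, had 13264 and 6952 reads, or 258 and 315 CPM. It was 1.22-fold higher in the cortex, with a log2 ratio of -0.29 (interval -0.33 to -0.25). Per kilobase the receptors were level in the cortex, at 18.6 CPM per kilobase each with overlapping counting intervals, whereas in the SVZ *Robo2* was at 6.17 times the level of *Robo1*.

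*Robo1* thus made up 13.8% of the *Robo* family per kilobase in the SVZ and 50.0% in the cortex. *Robo4*, the endothelial member, had 38 reads in the SVZ and 4 in the cortex, and *Robo3*, the receptor of commissural axons, had 0 reads in both. As a share of the family's reads, 0 *Robo3* reads allowed up to 0.0240% in the SVZ and 0.0269% in the cortex. The sum of the family was 2.08-fold higher in the cortex.

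**Figure D3:**
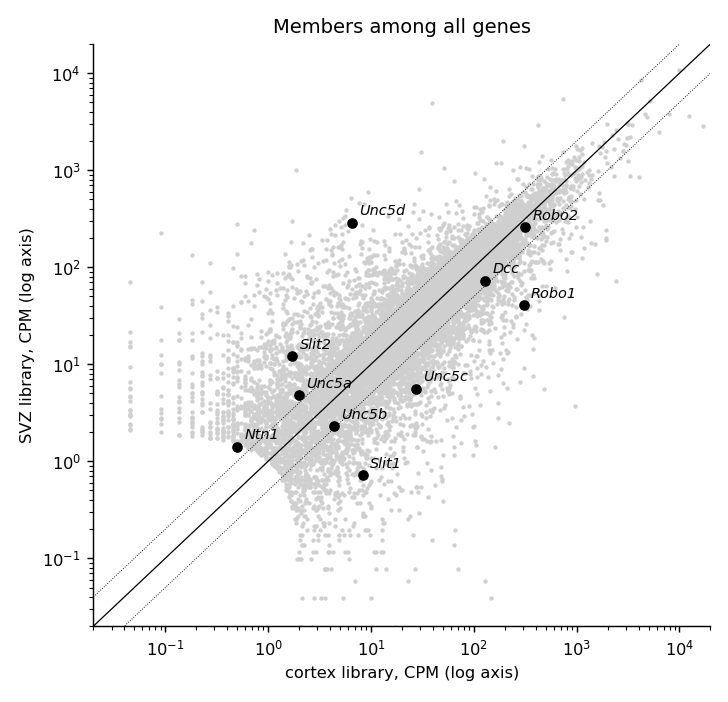
Cortex against SVZ level of each member in CPM, both axes on a log scale, with 1 point per gene and dotted lines at 2-fold. *Robo2* and *Dcc* lie between the lines with high levels in both libraries, and *Unc5d* lies farthest from equality.

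The order of the members by level per kilobase of exon differed between the areas. In the SVZ library it ran from *Unc5d* at 31.3 CPM per kilobase through *Robo2* at 15.2, *Dcc* at 5.52, *Robo1* at 2.46, *Unc5a* at 1.16 and *Slit2* at 0.477 to *Unc5b* at 0.367, *Unc5c* at 0.294, *Ntn1* at 0.226 and *Slit1* at 0.121. The counting intervals of *Unc5b* and *Unc5c*, and of *Unc5c* and *Ntn1*, overlapped. Receptors of the slits and of netrin therefore stood above every ligand of the list except that *Slit2* exceeded *Unc5b* and *Unc5c*.

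In the cortex library *Robo1* and *Robo2* led, both at 18.6 CPM per kilobase, followed by *Dcc* at 9.80, *Unc5c* at 1.43, *Slit1* at 1.40, *Unc5d* at 0.703, *Unc5b* at 0.696 and *Unc5a* at 0.479. *Ntn1* at 0.0795 and *Slit2* at 0.0678 were last. Neighbours with overlapping intervals were *Robo1* with *Robo2*, *Unc5c* with *Slit1*, *Unc5d* with *Unc5b*, *Unc5b* with *Unc5a*, and *Ntn1* with *Slit2*. With longest transcripts, *Slit2* passed *Unc5a* and *Unc5c* passed *Unc5b* in the SVZ, and *Unc5b* passed *Unc5d* and *Slit2* passed *Ntn1* in the cortex. *Robo2* then reached 30.0 CPM per kilobase in the SVZ, close to *Unc5d* at 31.3.

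The longest transcripts of these genes shared little sequence with other annotated transcripts. Of all 75-base stretches of the longest transcripts, 0 were shared with another annotated gene for 8 members, 0.460% for *Unc5c* and 0.0976% for *Dcc*. Exons outside the longest transcripts and the rest of the genome were not compared, nor were genes that overlap in position.

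The genes closest to the ends of the members' range were found by distance in log2 CPM over both libraries, among 12405 genes. Nearest to *Unc5d* were *Mki67*, *Cenpa* and *Cenpf*, genes of dividing cells, at distances of 0.228, 0.299 and 0.312. Nearest to *Slit1* were *St6gal2* (a sialyltransferase) and *Dmrt2* (a transcription factor), both at 0.145, and *9930012K11Rik* at 0.158. With 2 libraries such closeness states only that levels were alike in both.

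**Figure D4:**
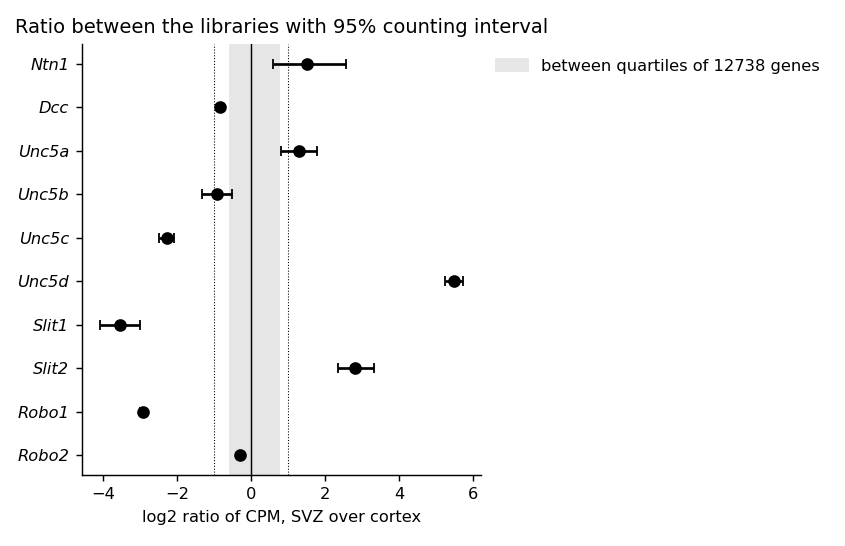
Log2 ratio of SVZ to cortex CPM for each member, with exact 95% counting intervals as bars, dotted lines at 2-fold and a grey band between the quartiles of all 12738 genes, -0.56 and 0.76. The members run from -3.53 (*Slit1*) to 5.47 (*Unc5d*), and *Robo2* at -0.29 lies inside the band.

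The wider guidance pathway was described from 9 lists of 74 genes, members included, of which 65 reached a mean of 1 CPM. Of these, 10 were at least 2-fold higher in the SVZ and 19 in the cortex, with a median log2 ratio of -0.45. Without the members, 7 of 56 genes (12.5%) were at least 2-fold higher in the SVZ and 16 (28.6%) in the cortex, against 20.0% and 15.6% of all genes.

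Of 7 other ligands of the netrin receptors, 3 were at least 2-fold higher in the cortex and 0 in the SVZ, against 15.6% and 20.0% of all genes. The lists were chosen with the contrast known, and nothing is read from these counts or from those of the effectors. *Flrt2*, an UNC5 ligand, had 2295 SVZ and 4200 cortex reads, or 44.6 and 190 CPM, and was 4.27-fold higher in the cortex. *Rgma*, a neogenin ligand, was at 3.01 and 20.7 CPM, 6.86-fold higher in the cortex. *Cbln4*, a cerebellin that binds DCC, had 0 and 56 reads. Against the floor of 3 reads it was at least 43.5-fold higher in the cortex before counting error in the 56 reads, its interval allowed a log2 ratio of up to -5.10, and with the SVZ library thinned to the cortex total the bound was -4.22.

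*Flrt3*, the most abundant FLRT per kilobase in both areas, was within 2-fold at 262 and 188 CPM. *Unc5d* and its ligand *Flrt2* were unequal in opposite ways. In the SVZ *Unc5d* was at 5.41 times the level of *Flrt2* per kilobase, and in the cortex *Flrt2* was at 35.1 times the level of *Unc5d*.

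Among the remaining netrins, the membrane-anchored *Ntng1* (552 and 69 reads) was 3.43-fold higher in the SVZ and its paralog *Ntng2* (52 and 69 reads) was 3.10-fold higher in the cortex. *Dscam*, an adhesion molecule that also binds netrin, was at 16.5 and 48.4 CPM, 2.93-fold higher in the cortex. Paralogs thus also went in opposite directions among the anchored netrins, as among the slits.

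Of 18 effectors of netrin receptors, 4 (22.2%) were at least 2-fold higher in the SVZ and 3 (16.7%) in the cortex, close to the shares of all genes. *Myo10*, an unconventional myosin that carries DCC into filopodia, had 5264 and 110 reads, or 102 and 4.99 CPM, and was 20.5-fold higher in the SVZ. *Dock1*, an activator of RAC1, was at 39.4 and 3.31 CPM, 11.9-fold higher in the SVZ. The adaptor *Nck1* and the ubiquitin ligase *Siah1b* had log2 ratios of 1.29 and 1.25.

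On the cortex side, *Trim67*, a ubiquitin ligase that binds DCC, had 927 and 5815 reads, or 18.0 and 264 CPM, and was 14.6-fold higher. Its paralog *Trim9* was within 2-fold, at 67.5 and 49.7 CPM. The kinases *Pak1* and *Dapk1*, of which the latter acts with UNC5B in cell death, had log2 ratios of -1.29 and -1.12.

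Of 16 effectors of ROBO receptors, 2 (12.5%) were at least 2-fold higher in the SVZ and 6 (37.5%) in the cortex, against 20.0% and 15.6% of all genes. *Srgap1*, a GTPase-activating protein that binds ROBO1, had 1461 and 2942 reads, or 28.4 and 133 CPM, and was 4.70-fold higher in the cortex. *Arhgap39*, *Cap2* and *Mycbp2* had log2 ratios of -1.36, -1.23 and -1.17. *Evl* (-1.70) and *Cap1* (-1.17), regulators of actin, are uncertain because many of their reads overlap another gene, and from the summed stranded counts the ratios were -1.35 and -0.89. *Ctnnb1* (beta-catenin) and the kinase *Abl1* were higher in the SVZ, with log2 ratios of 1.61 and 1.14.

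Of 6 genes for slit co-receptors and processing, 1 (16.7%) was at least 2-fold higher in the cortex and 0 in the SVZ. Over all genes these shares were 15.6% and 20.0%. The gene past 2-fold was *Nell2*, whose product is a ligand of ROBO3. It stood at 36.3 and 430 CPM, 11.8-fold higher in the cortex, and its receptor gene had 0 reads in both areas. All 3 genes of ROBO trafficking lay within 2-fold, where 20.0% of all genes passed it in the SVZ and 15.6% in the cortex. Nearest to the threshold was *Usp33*, at a log2 ratio of -0.97. *Ndfip1*, an adaptor for ubiquitin ligases, stood at 385 and 535 CPM.

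**Figure D5:**
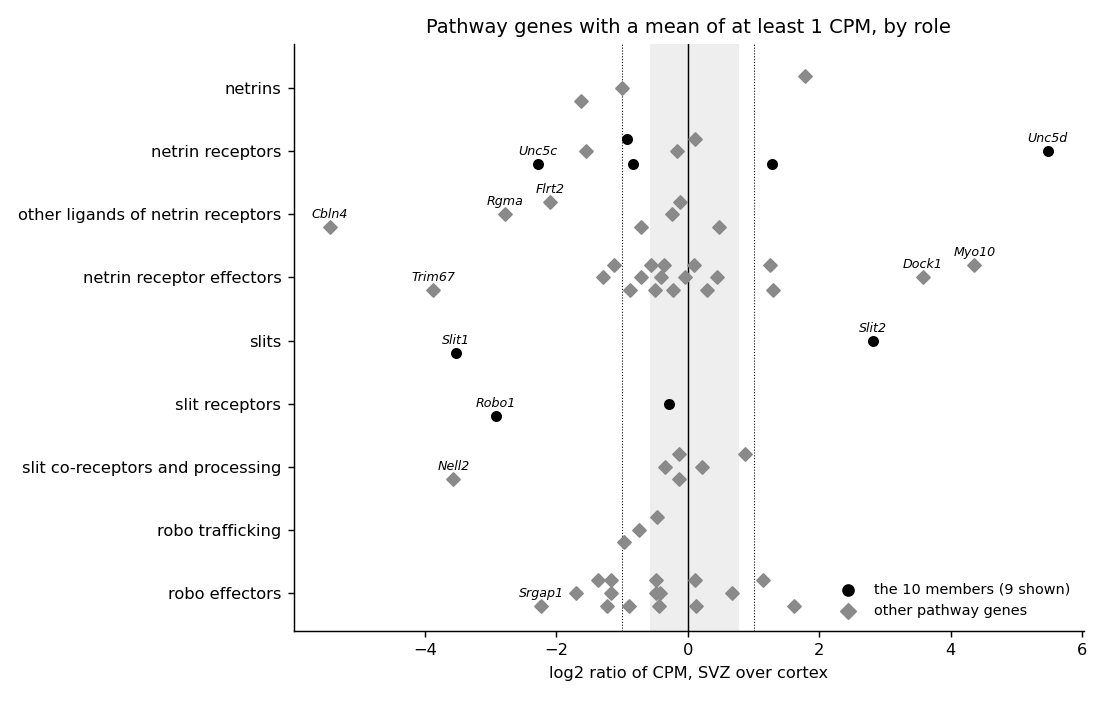
Log2 ratio of SVZ to cortex CPM for the tested genes of the 9 pathway lists, with 1 point per gene, dotted lines at 2-fold and members distinguished from the other genes. *Unc5d* and *Myo10* (4.36) stand highest, and *Cbln4*, drawn at its bound, and *Trim67* (-3.87) stand lowest.

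The labels of the areas were checked with *Pax6* (179.7 and 0.680 CPM) and *Eomes* (11659 and 2 reads), transcription factors of progenitors, and with *Tbr1* (47.3 and 218.9 CPM), a factor of deep-layer neurons. Cell-type markers differed between the same libraries. All 10 apical progenitor genes (summed 6730 against 149 CPM), all 9 intermediate progenitor genes (1665 against 271 CPM, *Neurog1* at 0 in the cortex) and all 10 proliferation genes (2265 against 40.0 CPM) were at least 2-fold higher in the SVZ. In the cortex, 8 of 10 neuron genes (2188 against 8075 CPM, *Nefl* at 0 in the SVZ) were at least 2-fold higher. So were 7 of 8 tested deep-layer and subplate genes (601 against 2711 CPM, *Cplx3* at 0 in both).

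Further marker lists went in either direction or were mixed, beside the same shares of all genes, 20.0% in the SVZ and 15.6% in the cortex. Microglial genes (10 of 10, summed 79.0 against 7.66 CPM, *Trem2* at 0 in the cortex) and choroid plexus genes (3 of 3 tested, 249 against 2.27 CPM, with *Folr1*, *Otx2*, *Clic6* and *Kl* at 0 in the cortex and *Kl* also in the SVZ) were higher in the SVZ. Cajal-Retzius genes (2 of 2 tested, 4.84 against 31.0 CPM, *Lhx5* and *Lhx1* at 0 in both) were higher in the cortex. Meninges genes were 2-fold higher in the cortex in 2 of 4 cases (4.59 against 9.39 CPM, *Aldh1a2* at 0 in both and *Col1a1* at 0 in the SVZ). Upper-layer genes were mixed, with 4 of 8 at least 2-fold higher in the SVZ and 1 in the cortex (1616 against 899.9 CPM). By the same count, interneuron genes (2 and 2 of 9, 179 against 524 CPM) and oligodendrocyte precursor genes (1 and 0 of 3, 12.1 against 12.0 CPM) were mixed too. The part of these cells in the ratios of the guidance genes was not tested.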

How the data were processed

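Per the study's methods, areas were cut by laser from brain sections after a haematoxylin and eosin stain, and a low-input RNA library kit was used. The submitters' processing notes name cutadapt 4.1, STAR 2.7.9a and mm10. The authors deposited whole-number counts of reads per gene, not normalized, and the unstranded column was used here. Reads that map to several places or overlap more than 1 gene are not counted. The authors' merged table, with CPM, fold change and log10 ratio, was not used. Gene-assigned reads were 59.0% of all reads in the SVZ and 59.1% in the cortex.

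The members and lists were chosen with earlier results of these data known. CPM, ratios with no pseudocount, exact binomial intervals and levels per kilobase of exon (GENCODE M21, GRCm38) were computed with Python 3.11.15, numpy 2.4.6, scipy 1.17.1 and pandas 2.3.3. Exon lengths were matched to the counts by gene symbol. The version of the gene annotation behind the deposited counts is not given. Reads may therefore have been counted over other exon bases than these lengths, which affects every level and share per kilobase. No test was possible. A count of 0 was set at 3 reads. Named genes were the members, family paralogs, pathway genes past 2-fold (or the most abundant of a list with none), genes next to the 2-fold threshold, the area markers and the 3 genes nearest to the extreme members. *Neo1*, *Flrt3* and *Trim9* were also described as paralogs, the latter pair chosen after their values were seen. Scaling by edgeR 4.0.16 and DESeq2 1.42.0, a pseudocount, other minimums, thresholds, count columns and lengths were tried. The procedure was also run on simulated counts that held counting error only, as the intervals assume. That run cannot show how well the intervals cover PCR copies or differences between embryos.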

Additional observations from a re-analysis of the deposited data

How the results depend on the processing

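No paired analysis was possible because there was 1 library per area, and no replicate could be left out. No member and no named pathway gene past 2-fold changed the direction of its ratio, but the slit family sum did, as described with the slits, and which area had more members past 2-fold depended on the setting. The count of members at least 2-fold higher in the SVZ went from 3 to 1 with a minimum mean of 10 CPM. At a 4-fold threshold the pathway counts went from 10 to 4 in the SVZ and from 19 to 9 in the cortex. Under TMM, upper-quartile and DESeq2 scaling the pathway count in the cortex went from 19 to 21. The members' median log2 ratio of -0.83 became -0.92 with TMM, -0.93 with upper-quartile scaling, -0.92 with DESeq2 size factors, -0.68 on the first stranded column and -0.70 with a pseudocount of 1 CPM. Scalings shifted the median of all genes by at most -0.099. Under TMM, upper-quartile and DESeq2 scaling and on the second stranded column *Unc5b* passed 2-fold, giving 4 members at least 2-fold higher in the cortex. With no minimum *Ntn1* entered, giving 4 members at least 2-fold higher in the SVZ, and with a pseudocount *Unc5a* dropped out, giving 2. With longest transcripts and with plain read shares, respectively, *Unc5d* made up 93.5% and 95.8% of its family in the SVZ and 14.7% and 16.1% in the cortex. *Unc5c* made up 59.3% and 68.1% in the cortex, *Dcc* 37.5% and 45.7% in the SVZ and 53.6% and 61.8% in the cortex, *Slit2* 90.6% and 94.4% in the SVZ, and *Slit1* 88.0% and 81.7% in the cortex. *Robo1* made up 15.1% in the SVZ and 52.5% in the cortex with longest transcripts. Of 80 alternative ratios of members, 68 stayed within the counting interval and 12 moved outside it. For the other pathway genes past 2-fold, 149 alternative ratios stayed within it and 35 moved. Of the alternative counts, medians and family shares, 55 stayed within set margins of the main value and 24 moved. Depth limits *Ntn1*, *Slit1*, *Slit2* and *Unc5a*, whose lower count was 11, 37, 38 and 44 reads.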
